A study of Caenorhabditis elegans with 4 samples.

Results

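A set of 10 germ granule and germline identity genes of C. elegans was followed in aged worms that moved fast or slowly: pgl-1, pgl-3, glh-1, glh-2, glh-4, deps-1, gld-1, nos-2, pie-1 and mex-3. They were chosen by name, with earlier results of these data known, and all of their probes were read. They are 10 of the 20481 genes on the array, with 23 of its 43603 probes. Wild-type N2 worms were kept at 20 °C, and whole worms were sorted on day 7 to 8 of adulthood by maximum velocity (MV), the peak speed in a short recording without food. Worms under 0.22 mm/sec made up the low MV group and the others the high MV group, with 2 samples in each group. Both groups are otherwise the same strain, age and temperature, with no transgene or drug named in the labels. The labels do not say how many worms went into a sample or whether the samples came from separate cultures, so each p-value measures the spread between these samples, which may be technical.

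Germ granules, called P granules in C. elegans, are condensates of RNA and protein that sit around the nuclei of germ cells and are passed to the germline cells of the embryo. PGL proteins form their scaffold, Vasa-like GLH helicases and DEPS-1 help to assemble them, and small-RNA pathways work within them. GLD-1, MEX-3 and the Nanos protein NOS-2 act on the translation or stability of germline and maternal mRNAs, and PIE-1 keeps transcription off in the germline cells of the early embryo. The hermaphrodite germ line makes these mRNAs and loads many of them into oocytes, so a whole worm holds them in the gonad, in oocytes and in any embryos it carries. In whole worms, fewer germ cells and less RNA per germ cell cannot be told apart.

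Each sample was hybridized to 1 single-colour array. Of 43803 non-control spots, the share well above background ran from 84.6% to 87.7% across arrays, and no spot was saturated. The log2 intensities were quantile normalized, each gene was read from its brightest probe, and groups were compared with limma over 12797 genes. A gene was called at a Benjamini-Hochberg adjusted p under 0.05 and a change of at least 1.5-fold, a log2 fold change past 0.58. On this rule 2175 genes, or 17%, were lower in low MV worms and 2783, or 21.7%, were higher, against 2751 and 998 when arrays were scaled to spike-in probes. Both low MV arrays lay on 1 slide with 1 scan and both high MV arrays on another slide and scan, so slide and physical ability cannot be told apart. With 2 arrays per group the smallest two-sided p of an exact permutation test is 0.333, and the p-values given here rest on the spread that limma shares across genes.

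Of the 10 genes, nos-2 alone was called, and it was lower in low MV worms. This is 1 of 10 genes, beside the 17% of all genes tested that were called lower and the 38.7% called in either direction, so the count of lower genes stands near the background. No member was called higher. On the adjusted p alone nos-2 was again the single gene of the 10, beside 60.2% of all genes tested, and 29.3% of all genes tested passed it with a lower mean in low MV worms. The 10 log2 fold changes ran from -0.69 to 0.14 with a median of -0.06, beside a median of 0.01 over all genes tested. In 6 genes the low MV mean was the lower of the pair and in 4 it was the higher, beside 49.3% of all genes with the lower mean in low MV worms. In 8 genes the arrays of the 2 groups overlapped. In nos-2 and glh-4 both low MV arrays lay below both high MV arrays, as they did in 41.3% of all genes tested, and no member had both low MV arrays above both high MV arrays, as 42.2% of all genes did. All 23 probes were well above background on all 4 arrays, and 1 of them, that of nos-2, was called lower in a fit of all probes, beside 17.2% of the probes tested.

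**Figure D1:**
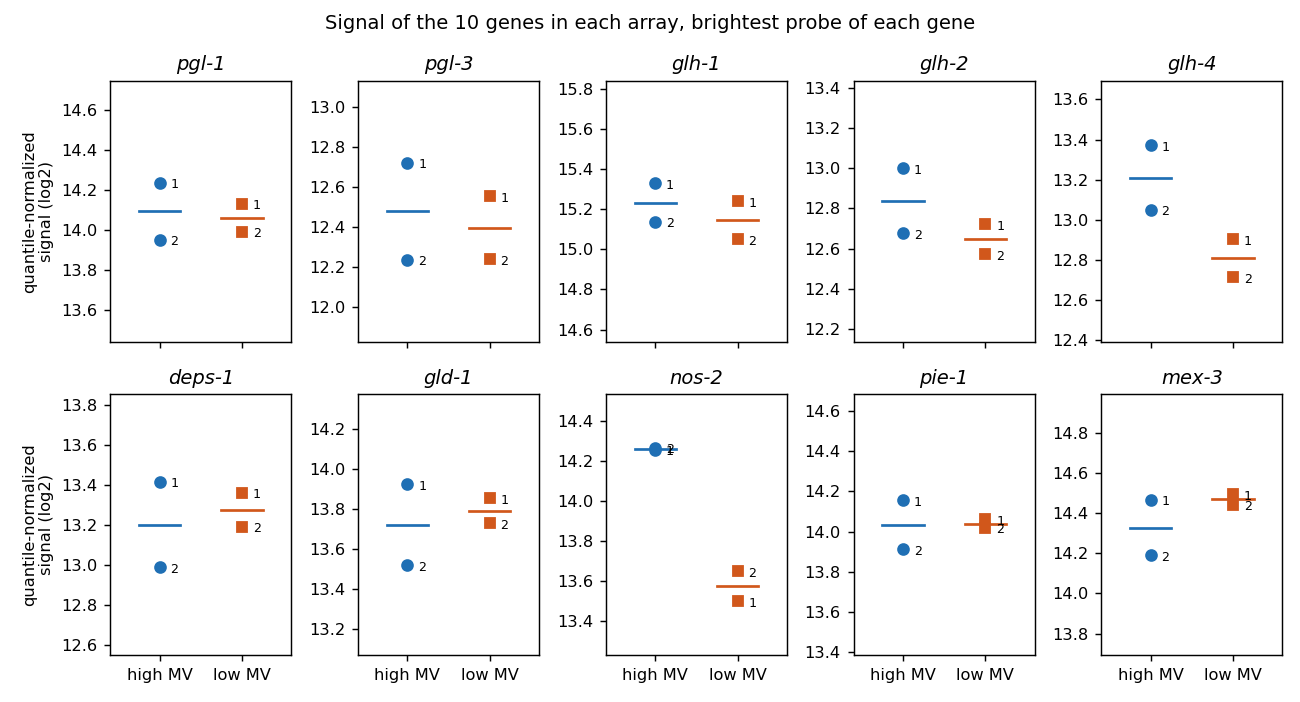
Quantile-normalized signal (log2, vertical axis) of the brightest probe of each gene in the 2 high MV arrays (circles) and the 2 low MV arrays (squares), with the replicate number beside each point and a line at each group mean, all panels spanning the same log2 range. The nos-2 arrays separate widely, at 14.26 and 14.26 against 13.50 and 13.65, and in the other 9 genes replicate 1 lies above replicate 2 within each group.

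The Nanos gene nos-2 (ZK1127.1) encodes an RNA-binding zinc finger protein whose maternal mRNA is translated in the germline precursors of the embryo, where it is needed together with nos-1 for normal germ cell development. Its log2 signal was 14.26 and 14.26 in the high MV arrays and 13.50 and 13.65 in the low MV arrays. The high MV arrays lay almost on top of each other, and both low MV arrays lay well below them. The log2 fold change was -0.69 (limma, SE 0.10, adjusted p = 0.0037, n = 2 per group), a level in high MV worms 1.61 times that in low MV worms, with a 95% interval of 1.35 to 1.92. Before any scaling between arrays the intensities were 21121 and 24625 in high MV worms against 10344 and 10578 in low MV worms. A share of 14% of all genes tested had a log2 fold change further below 0. The gene has 1 probe on the array, so no second probe speaks to this value. It was called lower under each of the 14 other scalings, filters, probe rules, variance priors, block and left-out arrays that were fitted with limma, with log2 fold changes from -1.36 to -0.61 and adjusted p from 0.000839 to 0.0232. Set against the median of the other 9 genes in the same fit, nos-2 differed by -0.65 (log2), and this difference ran from -0.82 to -0.51 over the settings. It was not past a 2-fold threshold, nor past the methods' t-test after Benjamini-Hochberg adjustment.

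The other Nanos genes, taken because they are its family, were measured beside it. The signal of nos-1 (R03D7.7) was 12.65 and 12.57 in high MV worms against 12.28 and 12.05 in low MV worms, without overlap. Its log2 fold change was -0.45 (limma, SE 0.12, adjusted p = 0.0223), past the adjusted p but under 1.5-fold. For nos-3 (Y53C12B.3), which acts with the FBF proteins in the adult germ line, it was -0.16 (SE 0.13, adjusted p = 0.322). For nos-3 the groups overlapped. Whether nos-2 differed from nos-1 was not tested.

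PGL-1 and PGL-3 are scaffold proteins of P granules, carrying RGG repeats that bind RNA. The signal of pgl-1 (ZK381.4) was 14.24 and 13.95 in the high MV group and 14.13 and 13.99 in the low MV group. The low MV values fell between those of the high MV arrays, and the log2 fold change was -0.03 (limma, SE 0.13, adjusted p = 0.846, 95% interval -0.37 to 0.31). For pgl-3 (C18G1.4) the arrays read 12.72 and 12.23 in the high MV group and 12.55 and 12.24 in the low MV group. Replicates differed here more than groups did, with a log2 fold change of -0.08 (SE 0.20, 95% interval -0.59 to 0.43). After quantile normalization the interval of pgl-1 lies within 1.5-fold in either direction, while that of pgl-3 just passes it. This bound depends on the scaling. Scaled to the 75th percentile of each array, pgl-1 was at -0.34 (SE 0.14) and pgl-3 at -0.30 (SE 0.20). Scaled to spike-in probes, they were at -0.71 and -0.67 (SE 0.38 each), and neither was called under these scalings.

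GLH-1, GLH-2 and GLH-4 are DEAD-box RNA helicases related to Vasa of Drosophila and anchor P granules at the nuclear envelope. The signal of glh-1 (T21G5.3) was 15.33 and 15.14 in the high MV group and 15.24 and 15.05 in the low MV group, a log2 fold change of -0.09 (95% interval -0.40 to 0.22). The groups interleave. For glh-2 (C55B7.1) it was 13 and 12.68 against 12.72 and 12.57, a log2 fold change of -0.19 (95% interval -0.55 to 0.17), with high MV replicate 2 below low MV replicate 1. The glh-1 and glh-2 sequences are closely related, and cross-hybridization between these probes was not tested. The largest difference among the helicases was that of glh-4 (T12F5.3), at 13.37 and 13.05 in the high MV group and 12.90 and 12.71 in the low MV group. Its log2 fold change was -0.40 (limma, SE 0.15, adjusted p = 0.0608, 95% interval -0.77 to -0.03), which did not pass the adjusted p. A second probe of glh-4, at 11.78 and 11.53 against 11.67 and 11.40, gave -0.12 (adjusted p = 0.526) with overlapping groups. Scaled to the 75th percentile of each array, glh-4 was called lower at -0.67 (adjusted p = 0.0128), and over all other limma settings its adjusted p ranged from 0.0196 to 0.235. The fourth gene of this class, glh-3 (B0414.6), which stands outside the 10, gave -0.49 (SE 0.10, adjusted p = 0.0112), under 1.5-fold.

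DEPS-1 is a P granule protein needed for normal levels of PGL-1 and GLH-1 in the granules. The signal of deps-1 (Y65B4BL.2) was 13.41 and 12.99 in the high MV group and 13.36 and 13.19 in the low MV group. Both low MV values sit between the high MV values. The log2 fold change was 0.07 (SE 0.17, 95% interval -0.35 to 0.50).

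GLD-1 is a KH-domain RNA-binding protein that represses translation of many mRNAs while germ cells pass through meiotic prophase. By its brightest probe gld-1 (T23G11.3) read 13.92 and 13.52 in the high MV group and 13.85 and 13.73 in the low MV group, a log2 fold change of 0.07 (SE 0.16, 95% interval -0.33 to 0.47). The gene has 9 probes, and they did not give the same value. The 2 bright probes gave 0.07 and -0.003, while the 7 dimmer probes lay from -0.52 to -0.23. Among the dimmer probes, 4 had both low MV arrays below both high MV arrays, beside 41.1% of the 22140 probes tested. A single one of the 9, at 10.93 and 10.60 against 10.35 and 10.18, passed the adjusted p, at -0.50 (limma, adjusted p = 0.0328), beside 28.7% of all probes that did so in that direction, and none passed 1.5-fold as well. Before scaling between arrays the 9 probes differed less among themselves, the bright probes at -0.44 and -0.37 and the dimmer probes from -0.62 to -0.22. Scaled to the 75th percentile they ran from -0.30 to -0.23 and from -0.49 to -0.09. The split between bright and dim probes of gld-1 is therefore wider after quantile normalization than before it, and all 9 probes read the same RNA samples.

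MEX-3 is a KH-domain repressor of translation in oocytes and the early embryo, and PIE-1 is a CCCH zinc finger protein of the embryonic germline cells. The signal of mex-3 (F53G12.5) was 14.47 and 14.19 in the high MV group and 14.50 and 14.44 in the low MV group, a log2 fold change of 0.14 (SE 0.12, adjusted p = 0.367). Its 4 probes ranged from -0.10 to 0.14 and none passed the adjusted p. The dimmest read 11.01 and 10.55 against 10.75 and 10.61, with the groups overlapping as on the brightest. The signal of pie-1 (Y49E10.14) was 14.16 and 13.91 in the high MV group and 14.06 and 14.02 in the low MV group, a log2 fold change of 0.01 (SE 0.12, adjusted p = 0.969). Its other probe, at 14.02 and 13.77 against 14.04 and 14.06, gave 0.16 (adjusted p = 0.288), with both low MV arrays above both high MV arrays. The direction of both genes turned with the scaling. With this scaling alone exchanged for that to the 75th percentile, mex-3 was at -0.14 (adjusted p = 0.392) and pie-1 at -0.30 (adjusted p = 0.0856). On the deposited log2 table, which is quantile normalized too but from intensities without background subtraction, mex-3 was at 0.41 (adjusted p = 0.0221) and pie-1 at 0.36 (adjusted p = 0.0324), under 1.5-fold.

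**Figure D2:**
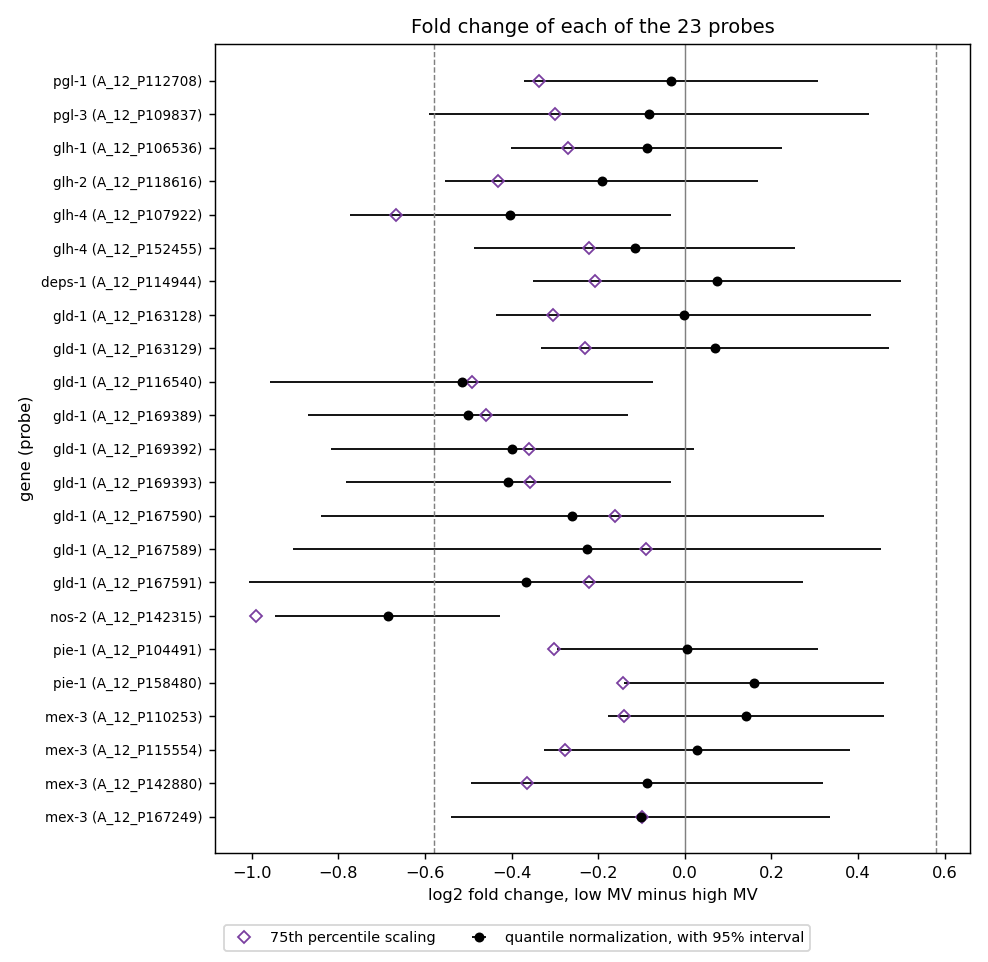
Log2 fold change (horizontal axis, low MV minus high MV) of all 23 probes, with limma's 95% interval after quantile normalization (filled circles) and the value after scaling to the 75th percentile (open diamonds), dashed lines marking 1.5-fold. The nos-2 interval is wholly below 0, the 9 gld-1 probes spread from -0.52 to 0.07, and all diamonds lie below 0.

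The choice of scaling moved the whole set. Before any scaling the log2 difference of all 23 probes was below 0, from -1.12 to -0.22 with a median of -0.43, beside a median of -0.13 over the 22140 probes tested, of which 57.4% were below 0. In every member, read from its brightest probe, both low MV arrays were then dimmer than both high MV arrays, as they were in 46.4% of all genes tested. Scaled to the 75th percentile, all 10 genes were below 0 with a median of -0.30, beside 0.02 over all genes with 48.9% of them below 0, and nos-2 and glh-4 were called, beside 19.3% of all genes called lower. Scaled to 8 spike-in probes, the median was -0.67, beside -0.35 over all genes with 66.5% of them below 0, and the same 2 genes were called, beside 21.3%. Every member had an SE of 0.38 under this spike-in scaling, against 0.10 to 0.20 after quantile normalization, so the spike-in values are less precise. After quantile normalization the median was -0.06, beside 0.01. The lower signal of nos-2, glh-2 and glh-4 kept its direction under all 15 limma settings, and the direction of pgl-1, pgl-3, glh-1, deps-1, gld-1, pie-1 and mex-3 did not.

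**Figure D3:**
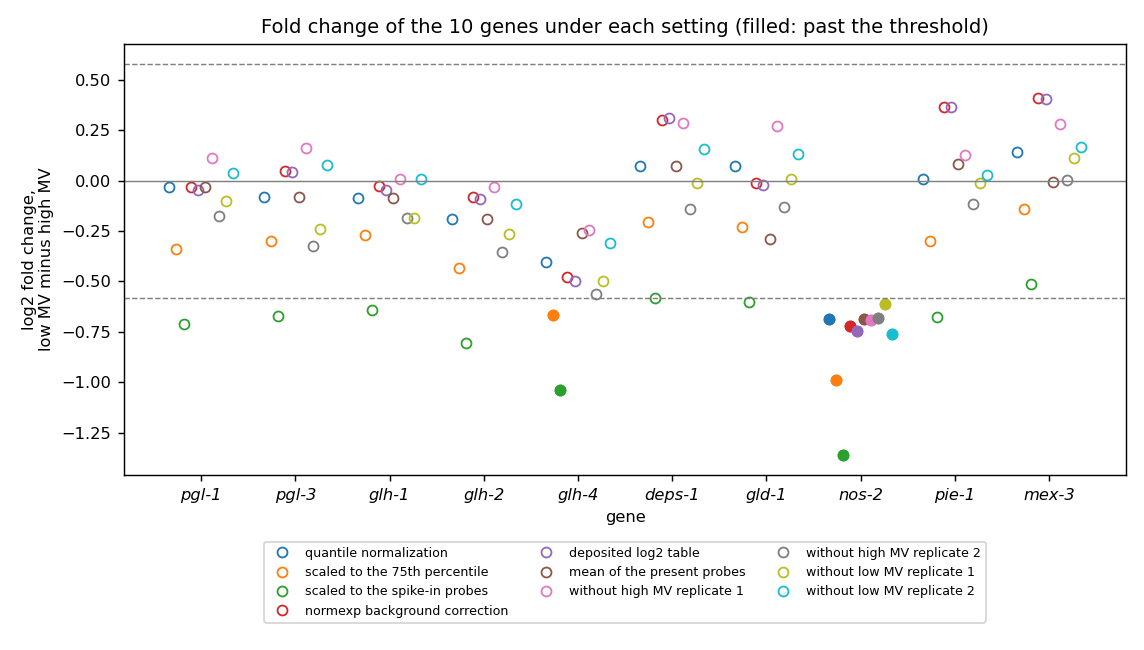
Log2 fold change (vertical axis, low MV minus high MV) of each gene under 10 settings, 1 circle per setting, filled where the gene was called, dashed lines marking 1.5-fold. The nos-2 circles are filled throughout, from -1.36 to -0.61, and the glh-4 circles are filled under the 75th percentile and spike-in scalings alone.

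The 10 genes also shared a pattern between replicates. In 9 of 10 genes high MV replicate 1 lay above replicate 2, by a median of 0.30 (log2), and in 9 of 10 low MV replicate 1 lay above replicate 2, by a median of 0.15. The exception in each group was nos-2. Over all genes tested, replicate 1 was the higher in 43.0% for the high MV pair and in 41.7% for the low MV pair. The order was not particular to these genes. Among the lists read below, the summed intensity of other germ granule genes was 202531 in high MV replicate 1 and 166479 in replicate 2. In the low MV replicates it was 167800 and 159189. For meiotic prophase genes the order was the reverse, at 140075 and 146684 in high MV worms and 92278 and 93618 in low MV worms. The standard deviation between the high MV arrays had a median of 0.21 over the 10 genes, beside 0.10 over all genes, and between the low MV arrays 0.11 beside 0.07. Without high MV replicate 1 the median log2 fold change of the 10 genes was 0.12, and without high MV replicate 2 it was -0.18, so single arrays set its sign.

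Other genes of the same processes were read from lists set by name, with earlier results of these data known. Of 20 other germ granule genes, 5 were called lower and none higher, with a median log2 fold change of -0.34. The largest falls were those of elli-1 (F20C5.3), at -1.51 (limma, SE 0.12, adjusted p = 0.000917), and pgl-2 (B0523.3), the third PGL gene, at -1.10 (SE 0.10, adjusted p = 0.00121). The remaining 3, named after their values were seen, were the Argonaute gene csr-1 at -0.82, simr-1 at -0.77 and mip-1, whose protein binds PGL and GLH proteins, at -0.63. Within the PGL family pgl-2 read 12.21 and 12.35 in the high MV group and 11.19 and 11.18 in the low MV group, with no overlap, while the arrays of pgl-1 and pgl-3 overlapped. The difference between these family members was not tested.

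Of 32 other germline RNA regulators, 7 were called lower and none higher, with a median of -0.33. The largest falls were those of fog-3 (C03C11.2), needed for germ cells to become sperm, at -1.47 (limma, SE 0.17, adjusted p = 0.00192), and fog-2 (Y113G7B.5), an F-box protein that works with GLD-1 in the hermaphrodite germ line, at -0.85 (SE 0.09, adjusted p = 0.00181). In low MV worms the fog-3 arrays, at 5.87 and 6.26, lay under the present cutoff of 6.71. This gene passed the filter through high MV worms alone, so it was bound to be lower in low MV worms. The size of its change rests on dim signal. With the higher cutoff of about 7.79 that the same mixture gave at its default tolerance, fog-3 was not tested and 6 of 31 genes of this list were called lower. Of 9 chromatin genes that maintain germline identity, none was called, with a median of 0.06, and 1 passed the adjusted p, the Polycomb-group gene mes-3 at 0.46 (adjusted p = 0.0113). Of 18 genes of meiotic prophase, 11 were called lower and none higher, with a median of -0.66. The largest were spo-11 (T05E11.4), the enzyme that makes meiotic DNA breaks, at -1.17 (SE 0.10, adjusted p = 0.00103), and htp-1 (F41H10.10), a chromosome axis protein with the close paralog htp-2, at -1.02 (SE 0.13, adjusted p = 0.00258). These counts stand beside the 17% of all genes called lower. The median of the granule, regulator and meiotic lists was below 0 under every limma setting. So were the medians of oocyte and eggshell genes (-0.67 to -0.18) and of body wall muscle genes (-1.02 to -0.47), both read below. The median of the chromatin list turned, to -0.09 scaled to the 75th percentile, -0.47 scaled to spike-in probes and -0.02 without high MV replicate 2.

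**Figure D4:**
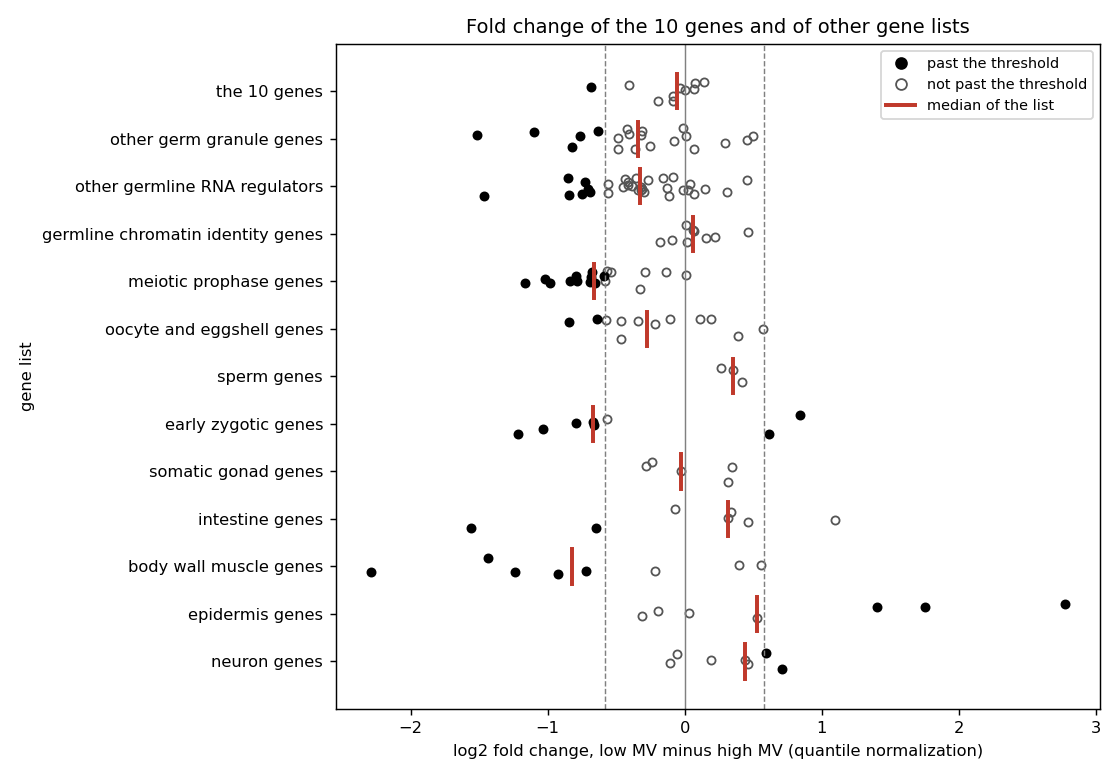
Log2 fold change (horizontal axis, low MV minus high MV, quantile normalization) of each tested gene in each list, filled where called, with the list's median as a bar and dashed lines at 1.5-fold. The 10 genes have a median of -0.06, the other germ granule genes -0.34, the other germline RNA regulators -0.33 and the meiotic prophase genes -0.66.

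Marker lists of other cells of a whole worm were read in the same fit, where 17% of all genes were called lower and 21.7% higher. Of 12 oocyte and eggshell genes, 2 were called lower, cpg-3 at -0.84 and egg-2 at -0.64, a share near that of all genes. The list median was -0.28, with 8 genes below 0 and 4 above 0. On the adjusted p alone 6 were lower and 2 higher. The 2 higher, named after their values were seen, were mbk-2 at 0.57 (limma, adjusted p = 0.0121) and perm-4 at 0.39 (adjusted p = 0.0208). The summed intensity of the list was 956596 to 1068850 in high MV worms against 891658 to 915856 in low MV worms. Of 13 early zygotic genes, which embryos transcribe, 8 were tested, with 5 lower, the largest being ref-1 at -1.21, and 2 higher, led by tbx-37 at 0.84, and summed intensities of 5201 to 5354 against 4501 to 4863. Their median was -0.67. With no filter on dim probes all 13 were tested, with 5 lower, 3 higher and a median of 0.03. With normexp background correction 9 were tested, with 1 lower and 1 higher. Of 12 sperm genes, 9 had no present probe, spe-9 and fer-1 among them, and none of the 3 tested was called, with summed intensities of 391 to 416 against 505 to 515. Of 8 somatic gonad genes, 5 were tested and none was called.

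Of 8 body wall muscle genes, 5 were called lower, with unc-27 at -2.29 and a list median of -0.82. Another 2 passed the adjusted p as higher but stayed under 1.5-fold. They were hlh-1 at 0.56 (limma, adjusted p = 0.048) and lev-11 at 0.40 (adjusted p = 0.0323), named after their values were seen. The 7 tested intestine genes went both ways, with a median of 0.32. Among them 2 were called lower, led by ges-1 at -1.56, and 4 lay above 0 without a call, the furthest being ifb-2, at 9.32 and 9.40 in high MV worms against 11.19 and 9.72 (limma, adjusted p = 0.0936). Without low MV replicate 2 3 intestine genes were called higher and 1 lower. Of 7 tested epidermis genes 3 were called higher, led by rol-6 at 2.78, and of 7 tested neuron genes 2 were, led by unc-13 at 0.71. Both of these genes passed the filter through low MV worms alone, their high MV arrays, at 4.87 and 4.69 for rol-6 and 6.47 and 6.67 for unc-13, lying under the present cutoff, so they were bound to be higher there and the sizes rest on dim signal. Without them, dpy-7 and wrt-10 of the epidermis and ric-4 of the neurons were called higher. The part of these cells in the values of the 10 genes was not tested.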

How the data were processed

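RNA of 2 low MV and 2 high MV samples was hybridized to Agilent arrays. The authors scanned them, read the images with Feature Extraction 11.5.1.1 and deposited, per spot, a background-subtracted intensity with median spot and background intensities. They also deposited a table of log2 values, equal to the quantile-normalized log2 median intensity to within 5e-09.

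Here the log2 background-subtracted intensity of non-control spots was quantile normalized. Spots with an outlier flag were dropped, spots of 1 probe averaged, and probes kept where both arrays of a group exceeded the crossing of 2 fitted Gaussian components (scikit-learn 1.9.0). Probes were named through the RefSeq table of WBcel235. Genes were tested by limma 3.58.1 (R 4.3.3), and tables made in Python 3.11.15 with pandas 2.3.3, numpy 2.4.6, scipy 1.17.1 and matplotlib 3.10.9. The limma fit was checked on simulated arrays with known changes. The number of arrays limits the precision.

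The members and lists were chosen with earlier results of these data known. Named genes are the 10, the 2 largest calls in each direction of each germline list and 1 of each cell type list, with exceptions stated. Alternatives were 75th percentile and spike-in scaling, normexp with an offset of 50 on the median intensity, the deposited table, 2 other filters, the mean of probes, a trended robust prior, the methods' t-test, a 2-fold threshold, the replicate block and each array left out. Probe and list values under other scalings and the mixture's default tolerance were added after seeing the data. The integrative permutation test of the methods was not used, and no sequences were available to print here.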

Additional observations from a re-analysis of the deposited data

How the results depend on the processing

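The call of nos-2 was kept in each limma fit at 1.5-fold, and no member was called higher under any alternative. Scaled to the 75th percentile or to the spike-in probes, 2 members were called lower and their median log2 fold change was -0.30 or -0.67. Spike-in scaling called 998 genes higher, normexp 1517 higher and 1322 lower. With no filter on dim probes, 4190 genes were higher, and with the filter on spots well above background 4251, where more genes were tested. With the mixture behind the present cutoff stopped at its default tolerance, an alternative chosen after seeing the data, the cutoff was about 7.79, 11132 genes were tested, 2293 were higher and 1864 lower, and the members' log2 fold changes and calls did not change. At 2-fold, 1272 genes were higher and 912 lower, with 0 members. The methods' t-test called 801 and 762 genes after Benjamini-Hochberg adjustment, with 0 members, and 2246 and 1895 at an unadjusted p under 0.05, with 1 member, nos-2.

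With each array left out in turn, where a lone array is taken to vary like the other group, 2719 to 2861 genes were higher and 2039 to 2338 lower, with 0 members higher and 1 lower, and the members' median ran from -0.18 to 0.12, the highest without high MV replicate 1. The labels give no shared origin to replicate numbers, and the replicate differences of the groups correlated at -0.03 across genes. With the replicate number as a block, 2812 genes were higher and 2182 lower, with 1 member lower. Of the values of single members under alternatives, 166 kept their side of the threshold, glh-4 passed it in 2 and nos-2 missed it in 2. A slide block could not be fitted because each slide holds 1 group. The causes of these differences were not tested. The 4 arrays limit the precision of all values.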
